A study of Mus musculus with 2 samples.

Results

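The Hox genes are those whose symbol is Hox with a cluster letter from a to d and a number, and 33 of the 18194 genes named on the arrays were of this kind, with 48 of 45101 probe sets. Members were probe sets that the platform annotation pairs with a single such symbol. Other Hox genes were not analysed here. The measured genes were 9 of cluster Hoxa, 9 of Hoxb, 7 of Hoxc and 8 of Hoxd. Total RNA of entire E14.5 mouse embryos, all wild type, was hybridised to 2 Affymetrix mouse genome arrays, run as duplicates of 1 condition. The methods give NMRI or C57/BL6 as the strains of the E14.5 embryos without saying which was used for the arrays, and whether the duplicates are separate embryos or 1 RNA is not stated, so the spread between them may be technical.

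Hox genes encode transcription factors with a homeodomain, the fold that binds DNA. In mammals they lie in 4 clusters that arose by duplication of an ancestral cluster, and genes at the same position in different clusters form paralogue groups, numbered 1 to 13. Their order along a cluster follows the order of their domains from hindbrain to tail, so that low numbers act in hindbrain and neck, middle numbers in the trunk, and high numbers in the lumbar and tail region, the limbs and the genital tubercle.

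Each signal was read against a background bound, which was taken from 80 probe sets of chemosensory receptor genes (olfactory, vomeronasal, taste). Their 95th percentile was 28.0 on array 1 and 33.9 on array 2. A gene was called above background if 1 or more of its probe sets exceeded the bound on each of the 2 arrays. Multiples of the bound place a probe set relative to background. They do not order transcripts by amount, since the response of a probe set is not known. In RNA of the whole embryo, fewer cells with a transcript and less of it per cell cannot be told apart. Markers of the tissues of an embryo were present, with 19 of 19 measured genes of hepatocytes, skeletal muscle, cartilage, neurons and erythroid cells above background, among them Afp, Myog, Col2a1, Tubb3 and Alas2, and 0 of 4 placenta genes, with Tpbpa at 0.8 and 5.8.

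Of the Hox genes, 21 of 33 (63.6%) were above background on both arrays, beside 65.5% of all genes. A further 3 passed on 1 array only (4.75% of all genes), and 9 passed on neither. Over 2 times the bound on both arrays were 17 of 33, beside 51.7% of all genes. The shares above background and over 2 times the bound lie near those of all genes. The count that passed on 1 array only is small and was not compared. Within the family, all measured members of groups 2 to 6, 8 and 10 except Hoxa4 passed, whereas no measured member of groups 1, 7 and 12 did, and 1 of 4 in group 13. Groups hold between 1 and 4 measured genes, and none of these differences was tested.

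**Figure D1:**
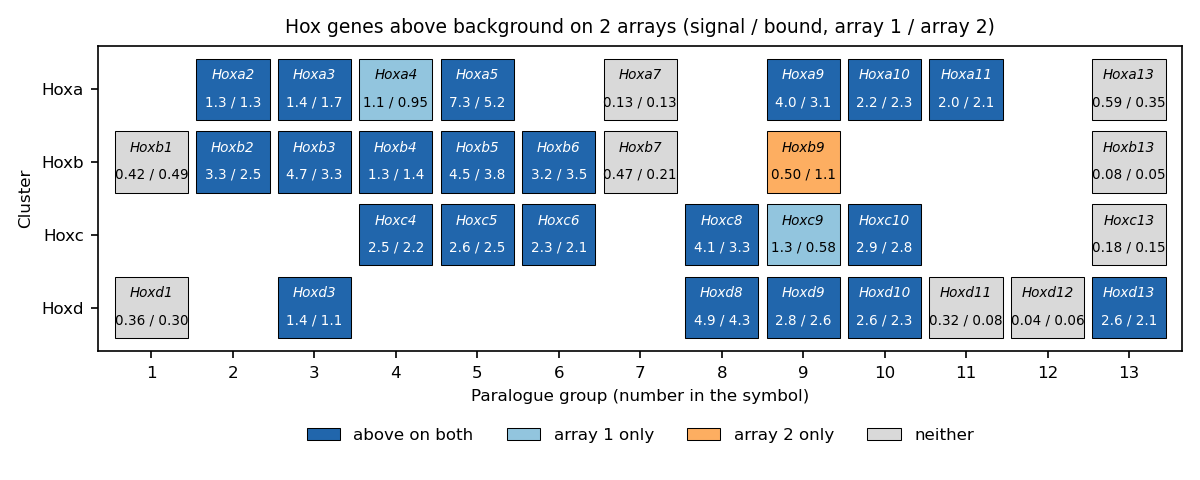
Measured Hox genes by cluster (rows) and paralogue group (columns), coloured by whether a probe set passed the background bound on both arrays, 1 array or neither, with the signal of the probe set of highest mean divided by the bound on array 1 and array 2. Positions without a box were not analysed or hold no gene. The dark blue boxes fill groups 2 to 6, 8 and 10 except for Hoxa4, and groups 1, 7 and 12 hold none.

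Counts by region of the clusters depended on how far above the bound the limit was set. In the anterior groups 1 to 3, 5 of 7 genes passed but 2 of 7 were over 2 times the bound. In the central groups 4 to 8, 9 of 12 passed and 8 were over 2 times the bound. In the posterior groups 9 to 13, 7 of 14 passed, and all 7 of these were over 2 times the bound. Some were only just over it, among them Hoxa11 at 2.02 and 2.07 times the bounds and Hoxa10 at 2.17 and 2.28. The counts over 2 times the bound were not repeated with other bounds. By cluster the counts were closer, with 6 of 9 for Hoxa, 5 of 9 for Hoxb, 5 of 7 for Hoxc and 5 of 8 for Hoxd.

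**Figure D2:**
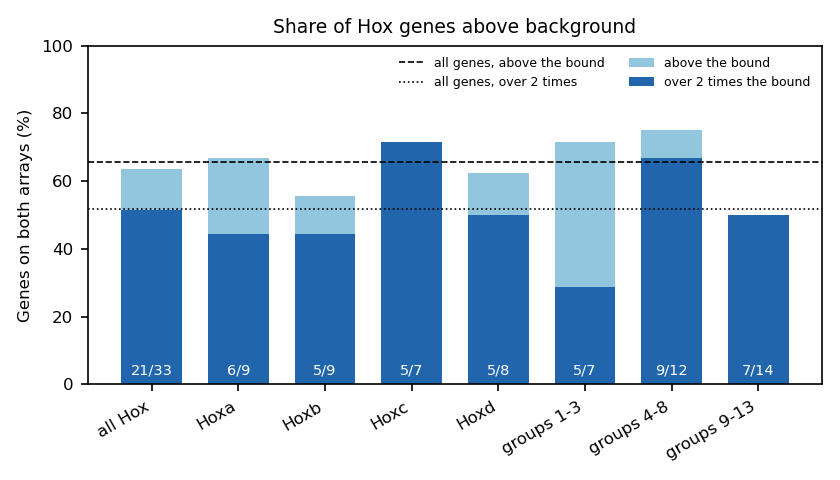
Percent of measured Hox genes above the bound (light) and over 2 times the bound (dark) on both arrays, in all, by cluster and by region, with numbers of genes above the bound in white and the same shares of all genes as dashed (65.5%) and dotted (51.7%) lines. The bar of groups 1-3 is mostly light (5 of 7 genes, 2 of them over 2 times the bound), and that of groups 9-13 is all dark (7 of 14).

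Among the anterior genes, Hoxb2 and Hoxb3 were over 2 times the bound on both arrays. Hoxb2, which acts in the hindbrain and its cranial nerves, had signals of 91.4 on array 1 and 85.5 on array 2. Hoxb3 had 131.6 and 113.4 in its leading probe set, 4.71 and 3.34 times the bounds. Hoxa2, which sets the identity of the second pharyngeal arch, was nearer the bound at 36.0 and 44.5. Hoxa3, needed for thymus and parathyroid, passed in 2 of its 4 probe sets, at 38.8 and 58.8 in one and 39.0 and 40.7 in the other. Hoxd3 passed narrowly, at 40.6 and 37.6, which on array 2 is 1.11 times the bound, and it no longer passed with the bound at the 99th percentile. Hoxb1, a hindbrain gene of the facial nerve territory, had 11.7 and 16.6, and its paralogue Hoxd1 had 10.2 on both arrays. All 3 measured genes of group 3 were thus above background and both of group 1 below it.

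Of the central genes, those of groups 5 and 6 that were measured all passed. Hoxa5, which is needed for lung and for neck vertebrae, had 203.1 and 177.1, or 7.27 and 5.22 times the bounds, and a further probe set of the gene had 120.8 and 138.4. Its paralogues passed as well, Hoxb5 at 125.8 and 129.3 and Hoxc5 at 73.7 and 84.3 in 1 of its 3 probe sets. Group 5 was thus complete, but Hoxc5 no longer passed when the median of its probe sets was taken. Hoxb6 had 89.5 and 119.1, and Hoxc6 had 64.8 and 72.9 in its leading probe set. Both measured genes of group 8 were clear of the bound, Hoxc8, a gene of brachial motor neurons and the thoracic skeleton, at 113.8 and 113.2, and Hoxd8 at 137.5 and 146.1. In group 4, Hoxc4 passed at 69.3 and 75.4 and Hoxb4 closer to the bound at 37.2 and 48.7. Hoxa4 lay across it, at 31.9 on array 1, above that array's bound, and 32.1 on array 2, below it.

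Group 7 lay between these and below the bound. Hoxa7 had signals of 3.7 and 4.5, or 0.132 and 0.133 times the bounds, and Hoxb7 had 13.2 and 7.1. Each was measured by a single probe set, and a transcript can be present below the bound.

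Of the posterior genes, 2 of 4 in group 9, 3 of 3 in group 10 and 2 of 7 in groups 11 to 13 were above background. Among all genes 65.5% passed, and among those with 1 probe set 48.5%. All genes of groups 11 to 13 except Hoxd13 have 1 probe set, and the part of this in the counts was not tested. Group 10, which patterns the lumbar spine and suppresses ribs, passed in full, with Hoxa10 at 60.8 and 77.4, Hoxc10 at 81.0 and 95.5 and Hoxd10 at 74.1 and 77.0. In group 9, Hoxa9 (111.6 and 104.7) and Hoxd9 (77.3 and 88.6) passed on both arrays. The other two passed on 1 array each. Hoxb9 had 14.1 on array 1 and 37.8 on array 2, and Hoxc9 had 36.0 and 19.6, so array 2 was higher for Hoxb9 and lower for Hoxc9.

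Of groups 11 to 13, only Hoxa11 and Hoxd13 were above background among 7 measured genes. Hoxa11, which with its paralogues shapes forearm and kidney, had 56.4 and 70.3, while Hoxd11 had 8.8 and 2.7. Hoxd13, the gene of digits and genital tubercle, had 71.5 and 72.6 in its leading probe set and 2.1 and 1.0 in the other. Hoxd12 was at 1.0 and 2.1. Hoxa13, a partner of Hoxd13 in the autopod, had 16.5 and 11.8. Hoxc13, known for hair and nails, had 5.1 and 5.0, and Hoxb13, a gene of the tail end and the prostate, had 2.1 and 1.8. Along Hoxd the passing genes were therefore Hoxd3, Hoxd8, Hoxd9, Hoxd10 and Hoxd13, with Hoxd11 and Hoxd12 between them below the bound. Hoxd11 and Hoxd12 were each measured by 1 probe set, and a transcript can be present below the bound.

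**Figure D3:**
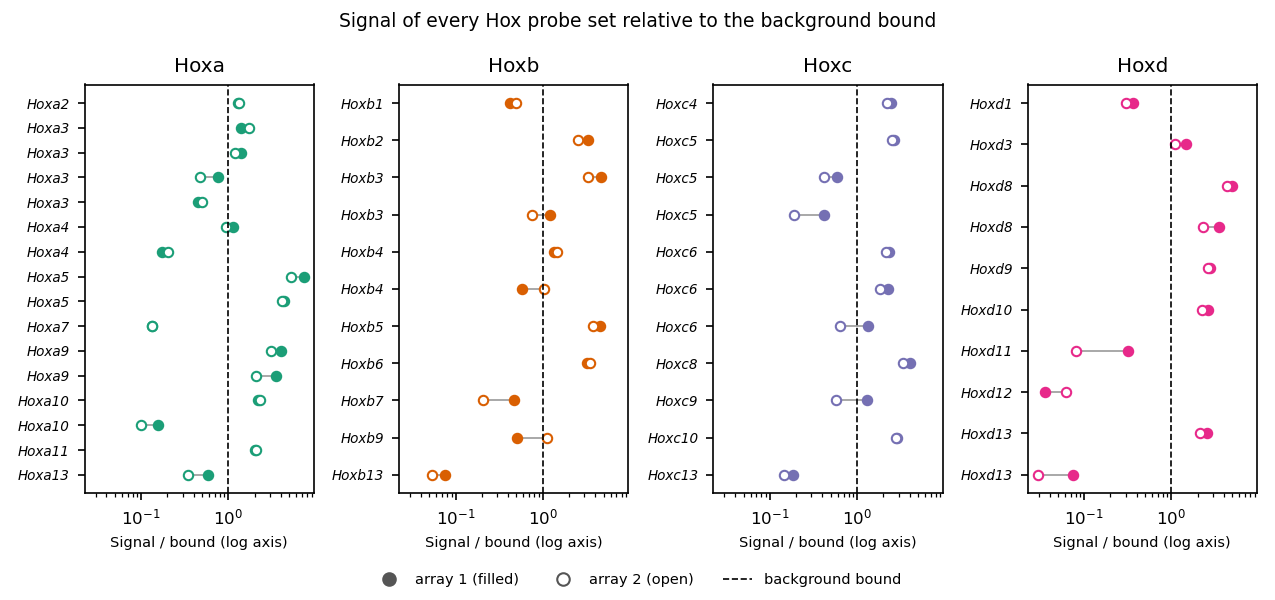
Signal of each of the 48 Hox probe sets divided by the bound of its array, on a log axis, for array 1 (filled) and array 2 (open), in order of paralogue number within each cluster. Points right of the dashed line are above background. In Hoxa3, Hoxa10, Hoxb3, Hoxb4, Hoxc5, Hoxc6 and Hoxd13 some probe sets are above it on both arrays and some are not. Points of Hoxa4, Hoxb9 and Hoxc9 also lie on both sides, since a probe set passed on 1 array only.

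The call of a gene rested on its probe sets, which often disagreed. Of 48 probe sets, 26 (54.2%) were above background on both arrays, beside 55.6% of all probe sets with 1 symbol. A further 6 passed on 1 array only (5.88% of all). More than 1 probe set was present for 11 genes. In 3 of these, Hoxa5, Hoxa9 and Hoxd8, every probe set passed on both arrays. In Hoxa4 none did, and in 7 some passed and some did not. Among the latter 7 were Hoxd13, whose other probe set had 2.1 and 1.0, and Hoxa10, whose other probe set had 4.4 and 3.4, all below the bounds. Hoxc5 passed in 1 of 3, with 16.4 and 14 in the next and 11.7 and 6.4 in the last. The number of probe sets moved with the call across the array: of Hox genes with 1 probe set 11 of 22 passed (48.5% of all such genes), with 2 probe sets 7 of 8 (76.1%) and with 3 or more 3 of 3 (90.2%). Of the 12 Hox genes not above background on both arrays, 11 have a single probe set, and the part of this in their calls was not tested.

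The promoters of RefSeq (GRCm38.p6, 250 bases before to 50 after the start) held entries for 22 Hox genes, 19 of them measured, with 24 windows in all. CpG dinucleotides numbered between 4 and 45 per window, with a median midway between 14 and 15 and a mean of 17.3, beside a median of 7 and a mean of 12.4 over 32851 windows of all genes. Which of the measured Hox genes had more CpG depended on the summary. Windows of those above background had the higher median (17.5, beside 13 in the others) and the lower mean (17.0, beside 19.3). The 2 sets hold 14 and 7 windows, and their ranges of 4 to 37 and 4 to 45 overlap, so no order is read from them. The 250 bases upstream are given for a gene far above the bound and a gene far below it in each of clusters Hoxa and Hoxd, chosen after their signals were seen, 5' to 3' on the strand of the gene, with CpG in capitals. They are Hoxa5 (chr6:52204588-52204837, minus strand, 28 CpG), Hoxa7 (chr6:52218574-52218823, minus strand, 7 CpG), Hoxd8 (chr2:74704365-74704614, plus strand, 6 CpG) and Hoxd12 (chr2:74674763-74675012, plus strand, 10 CpG).
Hoxa5: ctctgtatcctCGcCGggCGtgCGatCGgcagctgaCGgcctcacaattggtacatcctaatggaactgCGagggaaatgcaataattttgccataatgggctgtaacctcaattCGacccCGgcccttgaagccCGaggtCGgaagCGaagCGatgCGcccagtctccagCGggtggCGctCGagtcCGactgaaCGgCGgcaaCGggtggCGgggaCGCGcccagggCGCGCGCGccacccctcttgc
Hoxa7: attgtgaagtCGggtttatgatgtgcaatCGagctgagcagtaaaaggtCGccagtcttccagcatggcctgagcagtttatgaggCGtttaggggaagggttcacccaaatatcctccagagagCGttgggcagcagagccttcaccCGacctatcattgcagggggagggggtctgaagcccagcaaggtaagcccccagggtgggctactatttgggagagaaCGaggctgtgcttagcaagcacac
Hoxd8: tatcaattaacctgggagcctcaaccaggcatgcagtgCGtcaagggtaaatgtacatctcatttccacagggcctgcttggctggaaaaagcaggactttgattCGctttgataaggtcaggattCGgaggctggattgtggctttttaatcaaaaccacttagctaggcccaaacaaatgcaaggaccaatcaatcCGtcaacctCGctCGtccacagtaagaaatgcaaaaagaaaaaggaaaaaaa
Hoxd12: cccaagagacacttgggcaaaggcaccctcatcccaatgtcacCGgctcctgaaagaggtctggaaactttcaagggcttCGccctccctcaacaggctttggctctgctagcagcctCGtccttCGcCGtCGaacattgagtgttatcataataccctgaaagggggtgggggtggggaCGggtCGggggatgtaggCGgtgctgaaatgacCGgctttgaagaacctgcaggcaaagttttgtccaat
In Hoxa the gene above background has more CpG than the gene below it, and in Hoxd fewer. Across both strands of the windows, CCAAT was found in 15 of 24 Hox windows beside 37.4% of all windows, TATAAA in 4 beside 13.6%, AGGTCA, a half-site of nuclear receptors, in 7 beside 16.3%, and TGATTGAT, a joint Pbx and Hox motif, in 2 (Hoxa2 and Hoxd11) beside 0.746%. These matches describe the letters of the windows, not binding.

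Both arrays gave similar signals for the Hox probe sets above background, which are those that passed on both. Across the 26, which are not independent replicates and share the 2 arrays, the log2 signals had a Pearson's r of 0.931 and a Spearman's rho of 0.899. Selection on both arrays favours such agreement, since it leaves out probe sets like that of Hoxb9 (14.1 and 37.8). No correlation over other probe sets is set beside these values. Differences were taken as log2 signal of array 2 minus array 1, centred on the median of probe sets above background. Their median was 0.065 for Hox probe sets, with 17 higher and 9 lower on array 2, beside -0.012 for the 19423 probe sets with 1 symbol above background. For the 11667 of these in the range of mean signal of the Hox probe sets it was 0.003, with 5893 higher and 5772 lower. The SD of the difference was 0.243 for Hox probe sets and 0.277 for the 11667 probe sets of 1 symbol in the same range of mean signal, from 39.1 to 190.1.

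A difference beyond 1.5-fold was seen in 1 of 26 Hox probe sets (3.22% of all probe sets above background, and 4.54% of those in this range of signal). It was higher on array 2 (1.96% of all), and 0 Hox probe sets were lower on array 2 (1.26% of all). It was the leading probe set of Hoxa3, with a difference of 0.59, while the second one above background of the same gene had 0.05. The largest fall among probe sets above background was that of 1 of the Hoxa9 probe sets, from 98.0 to 70.9, a difference of -0.48, and the other one of that gene had -0.10. In Hoxa5 the 2 probe sets differed in opposite directions, by -0.21 and 0.19. In these genes the probe sets of 1 gene did not differ alike between the arrays.

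By cluster the median difference was 0.186 for Hoxa, with 6 of 9 probe sets higher on array 2, and 0.03 for Hoxb (3 of 5 higher). It was 0.136 for Hoxc (4 of 6) and 0.029 for Hoxd (4 of 6). Of all probe sets above background 47.7% were higher, and of those in the Hox range of mean signal 5893 of 11667. By region it was -0.027 for anterior groups (3 of 6 higher), 0.095 for central (8 of 12) and 0.116 for posterior ones (6 of 8). Clusters and regions were not compared by a test.

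**Figure D4:**
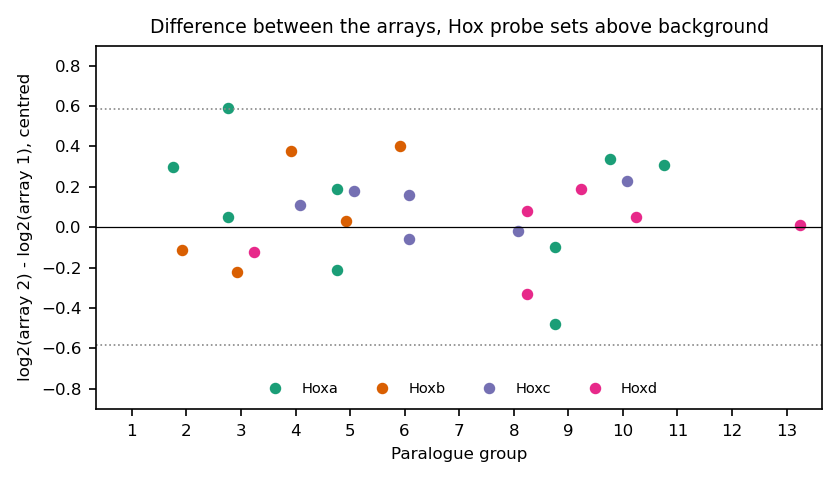
Difference between the arrays (log2 signal of array 2 minus array 1, centred) of the 26 Hox probe sets above background, by paralogue group and coloured by cluster (points set slightly apart sideways by cluster), with dotted lines at 1.5-fold. The Hoxa3 probe set at 0.59 lies at the upper line and all others within the lines.

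The 6 probe sets that passed on 1 array only lay across the bounds. Hoxb9 and a probe set of Hoxb4 (16 and 34.8) passed on array 2 only. Hoxc9, a probe set of Hoxc6 (37.3 and 21.4), the leading probe set of Hoxa4 and a probe set of Hoxb3 passed on array 1 only. No ratio is given for these or for probe sets below the bound on both arrays, since a signal within the background has no fold.

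**Figure D5:**
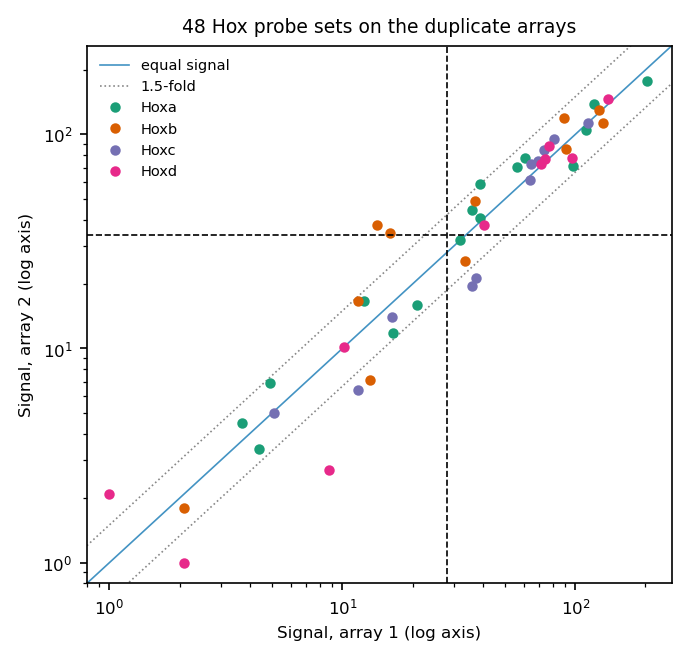
Signals of the 48 Hox probe sets on array 1 (horizontal, log axis) against array 2 (vertical, log axis), coloured by cluster, with the bounds (dashed), the line of equal signal and 1.5-fold lines (dotted). The 26 points above both bounds lie within the 1.5-fold lines or, for Hoxa3 (38.8 and 58.8), just beyond the upper one, and points left of or below a dashed line are within the background of that array.

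Of Hox cofactor genes 7 of 8 were above background on both arrays, and of the related ParaHox and Evx genes 0 of 8, beside 65.5% of all genes. The lists differ in probe sets per gene: 1 of 8 cofactor genes and 6 of 8 ParaHox and Evx genes have a single one, and of all genes with 1 probe set 48.5% passed, with 2 76.1% and with 3 or more 90.2%. The part of this in the counts was not tested. Pbx, Meis and Pknox proteins are homeodomain partners that bind DNA jointly with Hox proteins. Meis1 had 205.4 and 205.6, Meis2 423.4 and 396.4, Pbx2 327.6 and 307.9, Pbx3 486.7 and 498.1, Pknox1 145.8 and 97.9, and Pknox2 101.2 and 114.1. Meis3 was just above the bound on array 1, at 28.2 and 48.1, and Pbx4, at 2.3 and 18.9, was the exception. Among the ParaHox and Evx genes, Cdx2, a regulator of posterior Hox genes and of the gut, was near the bound at 27.2 and 23.2, and Evx2, which adjoins Hoxd13, passed on array 2 only, at 26.3 and 46.7.

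Of the retinoid and axial regulators, 10 of 14 (71.4%) were above background, near the 65.5% of all genes. Aldh1a2, the enzyme that makes retinoic acid, had 201.5 and 190.2, the receptor genes Rarb and Rarg 58.1 and 57.1 and 268.1 and 296.4, and Cyp26b1, which degrades retinoic acid, 102.1 and 74.2. Cyp26a1 was at 4.3 and 10.9, Rara at 10.6 and 2.6 through 1 probe set, Gdf11, a signal for the trunk-to-tail transition, at 16.7 and 28.6, and Egr2, a hindbrain regulator, at 16 and 27.4. The Polycomb genes, whose products keep Hox clusters silent, all passed, with Ezh2 at 656.4 and 592.3, Suz12 at 401.9 and 373.4, Eed at 311.4 and 310.6, Bmi1 at 309.4 and 279.7 and Cbx2 at 201.1 and 220.1. So did Kmt2a (163.4 and 137.9), which maintains Hox transcription.

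Genes that lie beside the clusters passed in 7 of 10 cases, among them Skap2 (203.4 and 198.8) next to Hoxa and Mtx2 (358.1 and 351.6) and Lnpk (72.1 and 72.8) near Hoxd. Skap1, near Hoxb, did not, at 17.2 and 25.0. Regulators of head regions that lack Hox transcripts passed in 7 of 11 cases, including Otx2 (31.9 and 43.5), Emx2 (83.6 and 66.6) and Six3 (76.1 and 69.6). Otx1 was among those that did not, at 20.1 and 21.1. Limb genes passed in 6 of 8 cases, including Tbx4, Pitx1 and Hand2 but not Tbx5. Motor neuron genes passed in 5 of 8 cases, including Isl1 (114.0 and 121.4) and Lhx3 (51.0 and 45.7). Mnx1 (11.3 and 9.9) and Chat (4.0 and 21.7) did not. Aldh1a2 counts both in this list and among the retinoid and axial regulators. Of other homeobox genes 72 of 136 (52.9%) were above background, and of Dlx and Msx genes, which are part of these, 7 of 9, beside the 63.6% of Hox genes. Of all genes, 65.5% were above background. None of these shares was tested, and the shares of the neighbour, head, limb and motor neuron lists, from 62.5% to 75.0%, lie near it.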

How the data were processed

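Duplicate arrays of 1 condition (whole wild-type E14.5 embryos) were used. The authors made the deposited signal intensity values with GCOS 1.3, per the submitters' processing notes, on a linear scale and scaled to a trimmed mean of 100. Detection calls were not used here.

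Of 45101 probe sets, 34958 paired with 1 symbol in the platform annotation; 932 listed several and 9211 were unlisted. Symbols were updated through RefSeq (GRCm38.p6). A gene is shown by its probe set of highest mean signal. The named genes are every measured Hox gene, the cofactor, ParaHox, Evx and regulator lists, and up to 4 of each other list, or were chosen after their values were seen. The members and lists were chosen with earlier results of these data known, and the symbol pattern for other homeobox genes was corrected after the matched names were seen.

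With a single condition there was no test and no p-value. The bound was also set at the 90th or 99th percentile, at the array median, or from late spermatid, photoreceptor and milk genes, of which 1 of 12, 0 of 9 and 0 of 6 were above background (receptor genes, 3 of 72). Further alternatives left out probe sets that may cross-hybridise (_s_at, _x_at) or 1 array, required the same probe set on both arrays, or took the median of a gene's probe sets. Differences were also taken uncentred, after quantile normalization, after loess (span 0.3), and unfiltered (pseudocount 16). Mean CpG per promoter window was added after the median had been seen. The steps were tested on simulated data in which expressed and silent signals lay far apart, so calls near the bound were not tested. Work was done in Python 3.11.15 with numpy 2.4.6, pandas 2.3.3, statsmodels 0.14.6 for loess, scipy 1.17.1 and matplotlib 3.10.9. With 2 arrays the precision of every value is limited.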

Additional observations from a re-analysis of the deposited data

Results flagged for a closer look

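Some signals at the Hox loci came from probe sets outside the 48 members. Hoxb5os, a long non-coding RNA gene of the Hoxb cluster, had 70.5 on array 1 and 86.9 on array 2, above the bound on both. Hoxa11os passed on array 1 only (29.6 and 21.3) and Hoxd3os1 on array 2 only (25.4 and 50.0), each in 1 of 2 probe sets. Of the 3 probe sets that list several Hox symbols, and so name no gene here, 2 were above the bound on both arrays, with 37.3 and 35.2 and with 44.5 and 61.9. None of these entered a count of Hox genes.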

How the results depend on the processing

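Of 33 Hox genes, 26 kept their call under all 9 alternatives, 17 above background and 9 below it. Not every alternative could change every call. Use of 1 array alone can only add genes. The same probe set and the median cannot change the 22 genes with 1 probe set, which include all 9 of those below. With 2 probe sets the median is their mean, so Hoxa10 and Hoxd13 passed with 1 probe set below the bounds. Hoxa4 was gained with the 90th percentile bound, with the bound from the other silent lists and with array 1 alone, Hoxc9 with array 1 alone and Hoxb9 with array 2 alone. Hoxd3 was lost with the 99th percentile bound, and Hoxa3, Hoxb4 and Hoxc5 with the median of the probe sets. With array 1 alone the count of Hox genes was 23 and that of probe sets 30, and with array 2 alone 22 and 28. Of 196 counts under the alternatives 195 stayed within 1.5 times the value reported. The exception was paralogue group 4, where 1 gene remained with the median of the probe sets. A count of 0 that stayed 0 is within this limit, as is a change between 2 and 3 genes, so it is wide for single paralogue groups. Of 48 median differences between the arrays, 47 moved by less than 1 SD of the probe sets behind them. Except for Hoxc this SD is larger than the median itself, so a median can change sign within it. For Hoxc the median was -0.035 without a filter and with a pseudocount of 16, where all 11 probe sets entered. In all, 6 medians changed sign. Medians this near 0 have no settled direction. No paired analysis was possible because there is 1 condition.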
